A study of Mus musculus with 36 samples.

Results

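The effect of the maternal diet on the liver of male offspring was measured over both diets that the offspring ate after weaning. All 36 arrays of the series entered the comparison, 19 from mice of dams on a high-fat diet (HF dams) and 17 from mice of dams on a low-fat diet (LF dams). Total liver RNA was hybridized to Illumina MouseRef-8 v2.0 beadchips, 1 array per mouse. All mice were males of the inbred strain C57BL/6J. The dams ate their diet from 5 weeks before mating until the pups were weaned on day 21, and the pups were then given either diet until they were killed at 9 weeks of age after a fast of 4 h. Of the mice of HF dams, 9 ate the LF diet and 10 the HF diet after weaning. Of the mice of LF dams, 9 ate the LF diet and 8 the HF diet. Per the study's methods, carbohydrate was low in the HF diet and high in the LF diet, so that fat and carbohydrate cannot be told apart here. Exposure before mating, in the womb and through milk cannot be told apart either.

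The labels give each mouse a cage number, 12 in all, 6 of each maternal diet, and no cage number occurred with both maternal diets. The labels do not say which cage is meant, and it was taken to be the cage of birth. A cage gave between 1 and 5 mice, and 5 cages (2 with LF dams, 3 with HF dams) had mice on both post-weaning diets. Breeding cages held 2 females, so a cage may hold pups of more than 1 dam. Under that reading the cage is the unit that received the maternal diet. The comparison was made on the 36 mice and again on the 12 cage means, which are the same mice averaged and no independent sample. Where a gene is given with a single adjusted p, it is from the 36 mice and does not speak for the cage means. Arrays were alike, with a median correlation of each with the others between 0.979 and 0.991.

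A mother's diet reaches the pup first through the placenta and then through milk, and the liver takes over much of lipid, sugar and hormone metabolism during and after weaning. The liver sets the output of glucose and lipoproteins, makes cholesterol and fatty acids under control of SREBP factors, burns fatty acids under control of PPAR alpha, and shows sex-biased expression driven by the pulses of growth hormone. Differences that are still present weeks after weaning, in mice on either diet, are the question that pooling over the post-weaning diets addresses. RNA was measured in whole liver, so that fewer cells of a type and less RNA per cell cannot be told apart.

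Of 12289 probes tested, 33 differed between mice of HF and LF dams at a false discovery rate of 0.05. The difference was taken from 1 limma fit of both diets with cage as a random block, and it is given as HF minus LF dams on the log2 scale of the probe values. In mice of HF dams 15 probes were higher (0.122% of those tested) and 18 were lower (0.146%). Counted once per gene, 10 genes rose and 17 fell of 8538 tested. The post-weaning diet, in the same fit, changed 2162 probes (17.6%). The median size of the difference over all probes was 0.04 for the maternal diet and 0.06 for the post-weaning diet. The changes of the 27 genes were small, between 1.10-fold and 1.35-fold with a median of 1.20-fold.

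On the 12 cage means, 4 probes passed the threshold and all of them fell in mice of HF dams (0.0325% of those tested). They measured 3 genes, Tuft1, Mcm10 (both of its probes) and 3110082I17Rik, and all 4 probes also passed in the 36 mice. No probe rose on the cage means by limma at this threshold, while 1080 probes had an unadjusted p under 0.05 there and 1251 did in the 36 mice. The correlation between mice of a cage, averaged over all probes, was 0.0375, and the 36-mouse fit used this value for every probe. The correlation was not the same for every gene, and 1289 probes (10.5%) had one of their own above 0.3. For those probes the fit took mice of a cage as less alike than they were. Their standard errors and p-values in the 36 mice may therefore be too small.

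The genes that fell and met the threshold in both counts are described first. Tuft1 encodes tuftelin, a protein first known from tooth enamel. Its probe read between 340.7 and 485.8 intensity units in mice of LF dams, with a median of 400.3, and between 228.1 and 452.6 in mice of HF dams, with a median of 288.9. Of the 19 mice of HF dams, 17 lay below the lowest mouse of LF dams, and 1, on LF after weaning, lay high among the mice of LF dams. The 36-mouse fit gave a log2 difference of -0.44 ± 0.06 (SE, 1.35-fold lower, limma adjusted p = 0.000389) and the cage means gave -0.41 ± 0.06 (limma adjusted p = 0.0287). All 6 cage means of HF dams, 8.03 to 8.43 on the log2 scale, lay below all 6 of LF dams, 8.50 to 8.72. Tuft1 passed the threshold in the 36 mice without any 1 of the 12 cages, and was the only one of the 27 genes to do so. On the cage means it passed in 2 of the 12 fits without a cage, with a limma adjusted p of up to 0.147, and it did not pass when the post-weaning effect was estimated within cages (adjusted p = 0.0659).

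Mcm10 encodes a protein that helps to start DNA replication at origins loaded with the MCM helicase. Its brighter probe read 2778.2 to 4002.7 units in mice of LF dams, with a median of 3374.6, and 1734.6 to 4171.8 in mice of HF dams, with a median of 2556.9. The groups overlapped through single mice: 13 mice of HF dams lay below every mouse of LF dams, and 1 lay above all of them. The log2 difference was -0.41 ± 0.09 in the 36 mice (limma adjusted p = 0.0293) and -0.41 ± 0.06 on the cage means (limma adjusted p = 0.0238). A second probe gave -0.37 ± 0.08 (adjusted p = 0.032) and -0.38 ± 0.06 (adjusted p = 0.0287). Each probe kept all 6 cage means of HF dams below all 6 of LF dams. The brighter probe passed in 5 of the 12 fits of the 36 mice that left out a cage, with adjusted p between 0.00546 and 0.134. On the cage means it also passed in 5 of 12, and with the post-weaning effect estimated within cages its adjusted p was 0.0752.

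The genes of the MCM helicase that were compared with Mcm10 had smaller differences, none of which passed. Mcm2, Mcm3, Mcm4, Mcm5 and Mcm6, subunits of the replicative helicase, had log2 differences between -0.09 ± 0.05 and -0.01 ± 0.04, with no limma adjusted p below 0.586. These 5 were chosen for comparison after the value of Mcm10 was seen. The probes of Mcm2, Mcm3, Mcm5 and Mcm6 were dim, with log2 cage means from 6.02 to 6.91. Those of Mcm4 ran from 7.48 to 7.69 and those of Mcm10 from 11.17 to 11.82. Background in the values makes the log2 difference of a dim probe smaller than that of the RNA. The smaller differences therefore do not show that these genes were unlike Mcm10. Of the 18 cell cycle genes measured from a list of 29, none passed and the median difference was 0.00.

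The third gene, 3110082I17Rik, is known by a RIKEN clone name only. Its probe was dim, at 114.4 to 163.1 units in mice of LF dams, with a median of 135.4, and at 84.8 to 136.7 in mice of HF dams, with a median of 108.7. In 13 mice of HF dams the value was below that of every mouse of LF dams. The log2 difference was -0.34 ± 0.06 in the 36 mice (limma adjusted p = 0.00598) and -0.30 ± 0.04 on the cage means (limma adjusted p = 0.0238). It passed in 11 of the 12 fits of the 36 mice without a cage, but in 4 of 12 on the cage means, with a limma adjusted p of up to 0.147. With the post-weaning effect estimated within cages its adjusted p was 0.0659. The deposited values still hold background signal, and at a dim probe this makes the log2 difference smaller than that of the RNA.

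**Figure D1:**
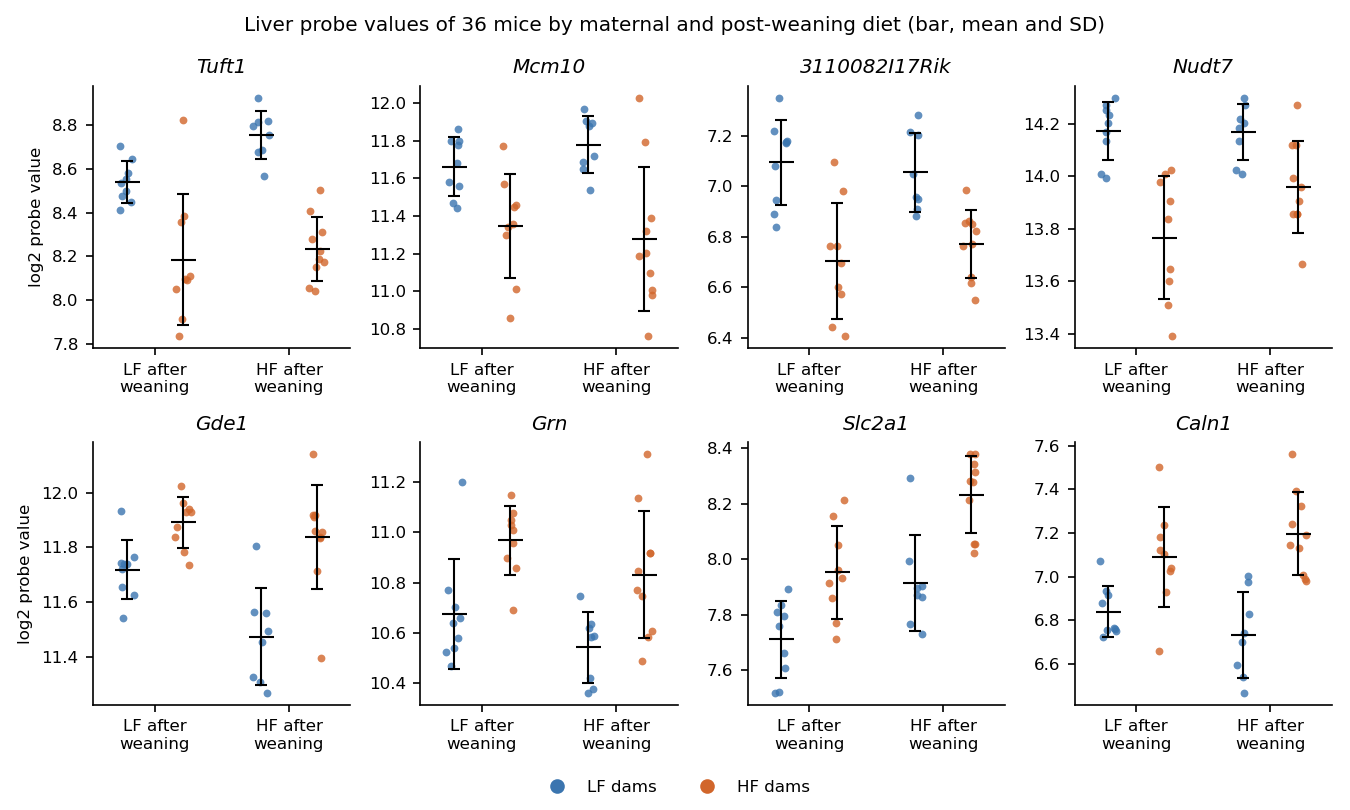
Log2 probe value of each mouse (points) for 8 genes that passed the threshold, in mice on LF (left pair) and HF (right pair) after weaning, with LF dams in blue and HF dams in orange. Black bars give the mean and SD of each diet group (8 to 10 mice). For Tuft1, 17 of the 19 mice of HF dams lie below every mouse of LF dams, and for the 4 genes in the lower panels the mice of HF dams tend to lie higher on both diets.

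Mcm10, which fell, and Gde1, which rose, were the genes with several tested probes that all passed, and for that reason the sequence around the start of each is shown. Both come from RefSeq (GRCm38.p6), 250 bases before to 50 after the start of the gene, 5′ to 3′ on the strand of the gene. Capitals mark matches on either strand to the CCAAT box (CCAAT), the GC box (GGGCGG) and the E-box (CACGTG), and no matches overlap each other.
Mcm10 (chr2:5012742-5013041, minus strand): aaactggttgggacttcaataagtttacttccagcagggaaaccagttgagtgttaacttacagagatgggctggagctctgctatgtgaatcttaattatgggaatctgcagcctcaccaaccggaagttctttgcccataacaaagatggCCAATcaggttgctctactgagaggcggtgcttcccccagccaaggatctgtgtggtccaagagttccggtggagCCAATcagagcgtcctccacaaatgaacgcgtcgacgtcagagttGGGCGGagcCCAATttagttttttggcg
Gde1 (chr7:118705689-118705988, minus strand): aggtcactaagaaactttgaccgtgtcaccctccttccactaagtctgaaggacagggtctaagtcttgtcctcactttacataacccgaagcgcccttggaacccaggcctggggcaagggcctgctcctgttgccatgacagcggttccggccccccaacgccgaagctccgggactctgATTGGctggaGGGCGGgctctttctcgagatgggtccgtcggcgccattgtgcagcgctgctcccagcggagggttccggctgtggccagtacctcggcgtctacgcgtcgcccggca
The Mcm10 window holds 3 CCAAT boxes and 1 GC box, and the Gde1 window holds 1 of each. A CCAAT box is in 37.4% of 32851 mouse promoter windows of this length, a GC box in 35.7% and an E-box, which neither window holds, in 7.15%. These matches describe letters in a window and say nothing of what binds there in these livers.

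Among the other genes that fell were Nudt7, Sgms2 and Erlin1. Nudt7, a peroxisomal enzyme that splits coenzyme A, had one of the brightest probes, at 16304.2 to 20150.4 units in mice of LF dams and 10730.3 to 19803.2 in mice of HF dams, and medians of 18834.2 and 15328.3. In 13 mice of HF dams it was below every mouse of LF dams. Its log2 difference was -0.31 ± 0.06 (limma adjusted p = 0.0113) in the 36 mice and -0.29 ± 0.07 (limma adjusted p = 0.29) on the cage means. A dimmer second probe of Nudt7 gave -0.32 ± 0.11 (adjusted p = 0.199). Sgms2, which makes sphingomyelin, fell by 0.22 ± 0.04 on the log2 scale (adjusted p = 0.0113) and did not pass on the cage means (limma adjusted p = 0.412). On LF after weaning the mice overlapped, at 6.90 to 7.35 for LF dams and 6.78 to 7.10 for HF dams on the log2 scale. On HF they did not, at 7.25 to 7.51 and 6.91 to 7.18. Erlin1, an endoplasmic reticulum membrane protein that acts in protein degradation, fell by 0.27 ± 0.06 on the log2 scale (adjusted p = 0.0321). Its own correlation between mice of a cage was 0.59, far above the value used in that fit, and it did not pass on the cage means (limma adjusted p = 0.446).

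Another 4 of the genes that fell work in mitochondria, in RNA synthesis or in signalling from the cell surface. Dmac1, an assembly factor of respiratory complex I, had 869.5 to 1266.3 units in mice of LF dams and 652.3 to 1134.9 in mice of HF dams, with medians of 1103.7 and 913.1. The fall was 0.25 ± 0.06 on the log2 scale (limma adjusted p = 0.0493). Rpusd4, which modifies mitochondrial RNA, fell by 0.17 ± 0.03 on the log2 scale (adjusted p = 0.0126), and Polr2h, a subunit shared by the RNA polymerases, fell by 0.20 ± 0.04 on the log2 scale (adjusted p = 0.0302). For these 3 genes the cage means of HF dams were all below those of LF dams, although none passed on the cage means, with limma adjusted p of 0.412, 0.293 and 0.199. Smad2, which carries the signal of TGF-beta receptors to the nucleus, fell by 0.16 ± 0.04 on the log2 scale (adjusted p = 0.0468).

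Camk1d, a calcium-dependent kinase, lies close to Mcm10 on the same chromosome, with Optn and Ccdc3 as the 2 protein-coding genes between them in the RefSeq annotation. It fell by 0.27 ± 0.06 on the log2 scale (limma adjusted p = 0.0293) at a dim probe, from a median of 111.8 units in mice of LF dams to 91.7 in mice of HF dams. Of the genes between, Ccdc3 was tested and had a difference of 0.04 ± 0.08 (adjusted p = 0.89). Once both diets were taken out, Camk1d and Mcm10 had a correlation of -0.47 over the 36 mice, and mice lower for one tended to be higher for the other.

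The remaining genes that fell were Zfp655, Spata22, Tmem185b, Dusp4, Aard and Pign, with log2 differences between -0.32 ± 0.08 and -0.13 ± 0.03 and limma adjusted p between 0.0293 and 0.0493. Dusp4 is a phosphatase that switches off MAP kinases, Pign acts in the making of GPI anchors, and Spata22 is known for its role in meiosis. The second probe of Dusp4 did not pass, with -0.06 ± 0.04 (adjusted p = 0.608). Of the 17 genes that fell, 7 had cage means of HF dams that were all below those of LF dams, which was the case for 0.472% of all probes tested. The same contrast chose these genes, and the share of all probes is given only as its background.

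Among the 10 genes that rose, 2 are transporters. Slc6a9, a carrier of glycine, had the largest rise, with 352.2 to 873.9 units in mice of LF dams, a median of 725.4, and 662.3 to 1188 in mice of HF dams, a median of 881.4. Of the 19 mice of HF dams, 11 lay above every mouse of LF dams. The log2 difference was 0.38 ± 0.09 (limma adjusted p = 0.0365) in the 36 mice and 0.29 ± 0.11 (limma adjusted p = 0.53) on the cage means. Its cage correlation was 0.43, and the cage of LF dams with 1 mouse on HF, cage 14, had a mean of 9.90 against 9.13 to 9.63 in the other 5. Slc2a1, the glucose transporter GLUT1, rose by 0.27 ± 0.05 (adjusted p = 0.0113), from a median of 224.5 units in mice of LF dams to 265.9 in mice of HF dams. It was the only member of the 21 glucose metabolism genes tested that passed.

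Gde1, an enzyme that splits glycerophosphodiesters, passed at 3 probes. Its brightest probe read 2468.1 to 3909.5 units in mice of LF dams, with a median of 3161.3, and 2692.4 to 4517 in mice of HF dams, with a median of 3753.8. The log2 difference was 0.26 ± 0.05 (limma adjusted p = 0.0162) at this probe, 0.31 ± 0.07 (adjusted p = 0.0293) at the second and 0.37 ± 0.07 (adjusted p = 0.00598) at the third. On the cage means the 3 probes gave 0.20 ± 0.07, 0.27 ± 0.09 and 0.36 ± 0.08, and none passed, with limma adjusted p from 0.323 to 0.483. Their cage correlations were 0.38, 0.41 and 0.36.

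Grn encodes progranulin, a secreted growth factor made in many tissues and strongly in macrophages. It read 1317.4 to 2353.1 units in mice of LF dams, with a median of 1540.6, and 1435.7 to 2538.5 in mice of HF dams, with a median of 1932.5. The log2 difference was 0.29 ± 0.07 (limma adjusted p = 0.0401), the cage means of HF dams, 10.71 to 11.12, were all above those of LF dams, 10.46 to 10.66, and limma gave an adjusted p of 0.231 on the cage means. Of 15 markers of Kupffer cells and macrophages 9 were tested, 7 of them had a difference above 0, none passed, and the median was 0.02. Their summed values ran from 1951.8 to 8263.7 units in mice of LF dams and from 3585.2 to 7523.5 in mice of HF dams, with medians of 4699.4 and 4641. Cd68, Csf1r and Cd5l were among the 6 markers not tested. Of the 15 markers 12 had a probe on the array, so the filter on dim probes accounts for only some of the 6. The part of macrophages in the rise of Grn was not tested.

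The other genes that rose were Caln1 and Espn, which bind calcium and bundle actin, Lmo4, a partner of transcription factors, Fbxo31, part of a ubiquitin ligase, Hspa2, a heat shock protein of the HSP70 family, and Uhrf1bp1l. Caln1 rose by 0.35 ± 0.06 (limma adjusted p = 0.00598), with 18 of 19 mice of HF dams above the median of LF dams, but its cage correlation of 0.65 was the highest among the named genes. On the cage means Caln1 had a difference of 0.26 ± 0.09 (adjusted p = 0.483). Espn rose by 0.34 ± 0.07 (adjusted p = 0.0113), and was lower by 0.58 on HF than on LF after weaning (adjusted p = 1.76e-08). The second probes of Fbxo31 and Hspa2 did not pass, at 0.16 ± 0.07 (adjusted p = 0.433) and 0.09 ± 0.03 (adjusted p = 0.276). Of the 10 genes, Grn and Uhrf1bp1l had cage means of HF dams that were all above those of LF dams, as had 0.0976% of all probes. Beside these genes, 3 probes with no gene symbol rose, of which ILMN_1232447 and ILMN_2791272 had the largest log2 differences of the 33, at 0.50 ± 0.09 and 0.48 ± 0.09.

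**Figure D2:**
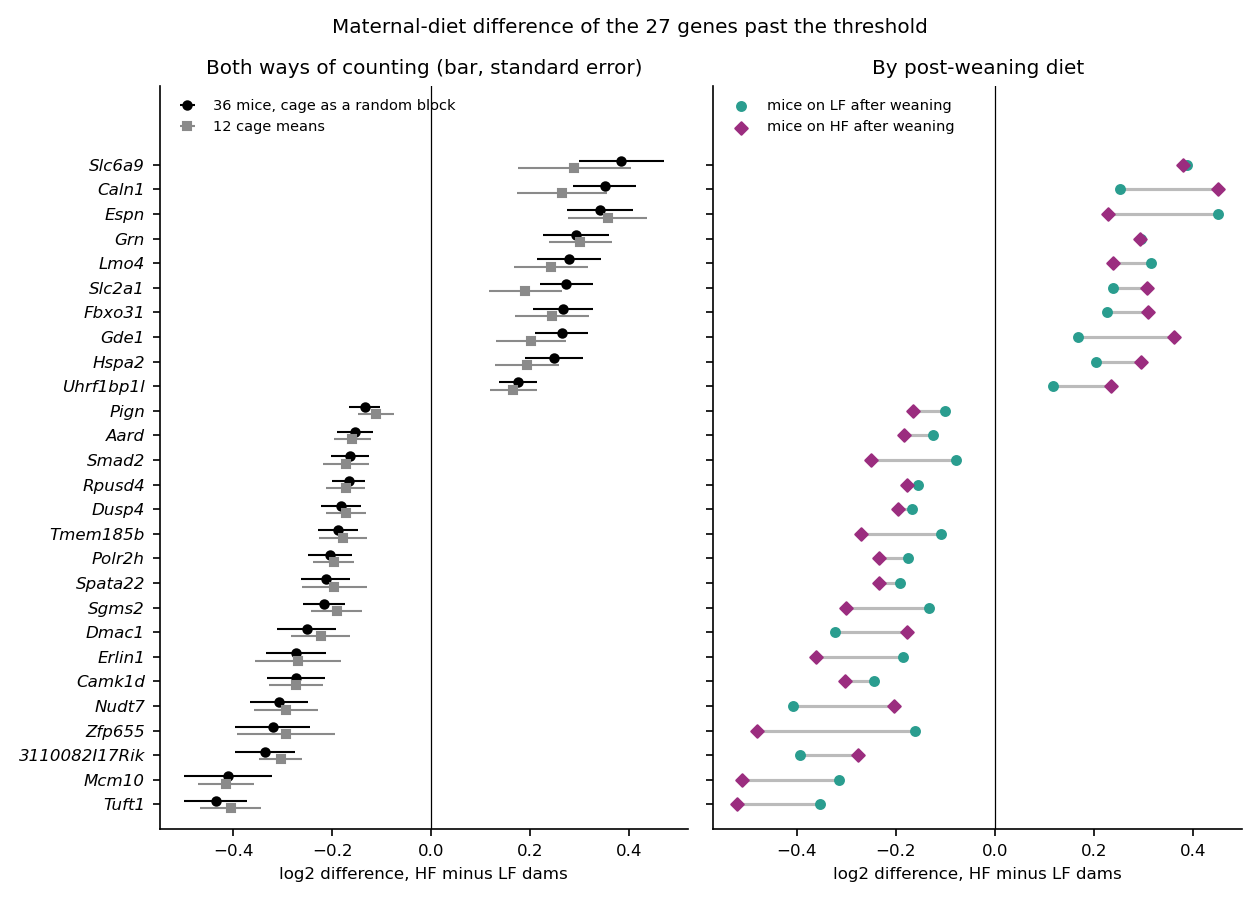
Log2 difference (HF minus LF dams, x axis) of the 27 genes that passed the threshold. The left panel gives the value and standard error from the 36 mice (circles) and from the 12 cage means (squares), and the right panel gives the value in mice on LF (circles) and on HF (diamonds) after weaning. All 27 genes keep their sign on both diets and in both counts, and 20 of them differ more on HF than on LF. They were chosen by the pooled difference in these mice, which favours a like sign. The share of all genes that differ more on HF is not given, so the 20 do not show a larger effect there.

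Mice of a cage were more alike for some of these genes than for others. Of the 10 genes that rose, 5 had a cage correlation above 0.3, and of the 17 that fell 2 had one. All 27 had an unadjusted p under 0.05 on the cage means, the highest being 0.0224, but apart from Tuft1, Mcm10 and 3110082I17Rik the lowest adjusted p there was 0.199. By a two-sided exact permutation test of the 12 cage means 9 genes reached p = 0.00216, the smallest that 6 cages against 6 allow, namely Tuft1, Mcm10, 3110082I17Rik, Dmac1, Polr2h, Rpusd4, Aard, Grn and Uhrf1bp1l. Of the 27 genes only Slc6a9 was above 0.05 in that test, with an exact p of 0.0714. The adjustment for post-weaning diet was not repeated in each permutation, so these p-values are approximate. The genes were also chosen from the same mice, so the p-values describe them and are not a second line of evidence.

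The count rested on which cages entered. Among cages of LF dams, omitting cage 9 left 2 probes past the threshold, cage 4 left 5, cage 11 left 10, cage 6 left 19, cage 8 left 35 and cage 14 left 40. Among cages of HF dams, omitting cage 20 left 7, cage 23 left 18, cages 10 and 12 left 19 each, cage 21 left 24 and cage 1 left 51. On the cage means limma called 0 probes when cage 4, 8, 9, 12 or 20 was omitted, with 897 to 1361 probes at an unadjusted p under 0.05. It called 1 when cage 10 or 21 was omitted, 2 when cage 6, 11 or 23 was, 4 when cage 1 was and 6 when cage 14 was. No named gene of the 27 changed its sign in any of these fits. The genes were chosen in the same mice, most of which remain in each fit, so a kept sign is no test of them. A typical gene, by the median, passed in 5 of these 12 fits of the 36 mice.

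**Figure D3:**
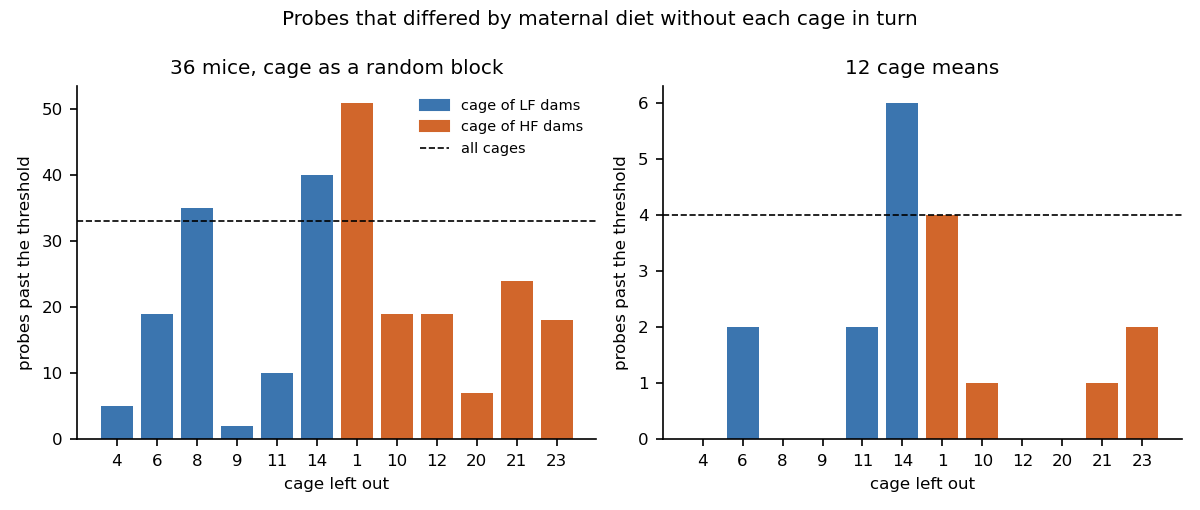
Number of probes past the threshold for maternal diet (y axis) when each of the 12 cages (x axis) was left out, in the fit of 36 mice (left) and of cage means (right). Bars are blue for cages of LF dams and orange for cages of HF dams, and dashed lines mark 33 and 4 probes with all cages. The count in the 36 mice runs from 2 without cage 9 to 51 without cage 1.

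Pooling over the post-weaning diets assumes a like difference on both. The interaction of the diets passed for 0 of 12289 probes by limma, with a lowest adjusted p of 0.164 and 774 probes at an unadjusted p under 0.05, and without the cage term it also passed for 0. Of the 27 genes, all had the same sign in mice on LF and on HF, and the difference was larger on HF for 20 of them, 6 that rose and 14 that fell. These genes were chosen by the pooled difference in the same mice, which favours a like sign on both diets. Their shared sign is therefore no test of pooling. How many of all genes differed more on HF is not given here, so the count of 20 does not show a larger effect on HF. The unadjusted interaction p by limma was under 0.05 for 4 of the 27, Zfp655, Sgms2, Tmem185b and Smad2. The lowest adjusted interaction p among the 27 was 0.682. Smad2 had a difference of -0.08 on LF and -0.25 on HF (unadjusted interaction p = 0.0157). Slc6a9 and Grn were the most even, at 0.39 and 0.38 for Slc6a9 and at 0.29 and 0.29 for Grn.

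The post-weaning diet also changed 14 of the 27 genes, against 1585 of all 8538 genes tested, and both effects came from the same mice. For Espn and Rpusd4 the post-weaning difference was the larger of the pair. Rpusd4 fell by 0.17 with an HF dam and was higher by 0.17 with HF after weaning (limma adjusted p = 0.000133). Slc2a1 was higher with HF at either time, by 0.27 for the dam and by 0.24 after weaning (adjusted p = 0.000719). Tuft1, Mcm10 and 3110082I17Rik did not pass for the post-weaning diet, with differences of 0.13, 0.02 and 0.02.

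Just outside the threshold lay genes of transport and metabolism with larger differences than many that passed. The highest adjusted p of a probe that passed was 0.0493, and the next value was 0.0521, for Fahd1, a mitochondrial enzyme, at -0.17 ± 0.04. Aqp8, a water channel, had -0.62 ± 0.15 (limma adjusted p = 0.0525), and its second probe -0.55 ± 0.15 (adjusted p = 0.116). Sucnr1, the receptor of succinate, had -0.45 ± 0.11 (adjusted p = 0.0525), and Slc25a30, a mitochondrial carrier, had -0.47 ± 0.11 (adjusted p = 0.0525). Cbs, the first enzyme of transsulfuration, had -0.29 ± 0.07 (adjusted p = 0.0922) at one probe and -0.29 ± 0.08 (adjusted p = 0.0922) at the other. For Fahd1 and Sucnr1 the cage means of HF dams all lay below those of LF dams, as they did for 0.472% of all probes tested. Fahd1, Aqp8, Sucnr1 and Slc25a30 were chosen after their values were seen.

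Pathways were described by lists, 29 in all, beside all 8538 genes tested, of which 4003 (46.9%) had a difference above 0 and whose median was -0.01. Of the list members 2 passed, Nudt7 among the growth hormone and male-biased genes and Slc2a1 among the glucose metabolism genes. Over all 8538 genes tested 27 passed, and the lists hold a small part of these. The count of 2 is therefore not read as few or many. No set test was made, and members of a list share regulators and so are not independent.

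The cholesterol synthesis list had the lowest median. All 15 measured of 20 members had a difference below 0, the median was -0.17 in the 36 mice and -0.06 on the cage means, and none passed. Sc5d, a late enzyme of the pathway, had the lowest p of them, with -0.18 ± 0.07 (limma adjusted p = 0.277). Hmgcs1 and Sqle, which act early and at the entry to the sterol branch, had -0.32 ± 0.18 (adjusted p = 0.551) and -0.20 ± 0.18 (adjusted p = 0.742), and were chosen after their values were seen. The median was -0.02 in mice on LF and -0.25 in mice on HF, and 7 members passed for the post-weaning diet, with a median of 0.33. The list follows a theme that the study took from these samples, so its direction is no independent evidence. The regulators Srebf1 and Srebf2 had -0.08 ± 0.08 (adjusted p = 0.793) and 0.07 ± 0.07 (adjusted p = 0.744), and Stard4, which carries cholesterol between membranes, had -0.26 ± 0.07 (adjusted p = 0.116).

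Lipid synthesis and lipid burning were described by a list each. Of 23 genes of fatty acid and triglyceride synthesis 6 were above 0 and the median was -0.06, with 0.07 in mice on LF and -0.20 in mice on HF. Aacs, which turns acetoacetate into acetoacetyl-CoA for lipid synthesis, had the lowest p, at -0.46 ± 0.11 (limma adjusted p = 0.072), with -0.12 on LF and -0.80 on HF (unadjusted interaction p = 0.0012). Of 31 genes of fatty acid oxidation and ketogenesis 23 were above 0 and the median was 0.07, with 0.04 on LF and 0.07 on HF. The member of lowest p was Eci2, an isomerase of unsaturated fatty acids, with 0.29 ± 0.09 (adjusted p = 0.192). The medians on the cage means were -0.03 and 0.05. Among the 15 lipid droplet genes, the lipases Mgll and Pnpla2 had 0.29 ± 0.07 (adjusted p = 0.09) and 0.24 ± 0.06 (adjusted p = 0.116), Plin5, a droplet coat protein, had 0.27 ± 0.09 (adjusted p = 0.202), and Pparg, a receptor that drives lipid storage, had -0.12 ± 0.10 (adjusted p = 0.722). Pnpla2 and Plin5 were chosen after their values were seen.

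Genes that growth hormone drives or that are higher in males held the one list member that fell, Nudt7. Of 25 measured of 34 members, 9 were above 0 and the median was -0.05, and on the cage means 6 were above 0 and the median was -0.06. The median was -0.12 in mice on LF and 0.02 in mice on HF. Hsd3b5, a male-specific steroid enzyme of mouse liver, had -0.50 ± 0.13 (limma adjusted p = 0.106) in the 36 mice and -0.55 ± 0.11 (limma adjusted p = 0.199) on the cage means. There all 6 cages of HF dams were below all 6 of LF dams, as for 0.472% of all probes tested. Socs2 and Cish, feedback inhibitors of the growth hormone receptor, had -0.62 ± 0.19 (adjusted p = 0.181) and -0.53 ± 0.27 (adjusted p = 0.509), and Cish had 0.15 on LF and -1.22 on HF. Elovl3, an elongase of fatty acids, had -0.33 ± 0.10 (adjusted p = 0.142), and Ghr, the receptor itself, had -0.18 ± 0.06 (adjusted p = 0.264). Among the 9 members above 0, the highest were Bcl6, a repressor that growth hormone lowers, at 0.20 ± 0.23 (adjusted p = 0.808) and Socs3, another feedback inhibitor, at 0.15 ± 0.17 (adjusted p = 0.81). These members other than Nudt7 were named after their values were seen.

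The acute phase list had the highest median, 0.14 in the 36 mice and 0.19 on the cage means, with 25 of 30 members above 0 and none past the threshold. The list follows a theme that the study took from these samples. Mt1, a metallothionein, had 0.83 ± 0.35 (limma adjusted p = 0.379) and Saa2, a serum amyloid, had 0.31 ± 0.41 (adjusted p = 0.835), both chosen after their values were seen, while Hamp2, a hepcidin, had the lowest p and the opposite sign, at -0.51 ± 0.21 (adjusted p = 0.364). The median was 0.01 on LF and 0.27 on HF. Cebpb, a transcription factor of the response, had 0.13 ± 0.08 (adjusted p = 0.575).

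**Figure D4:**
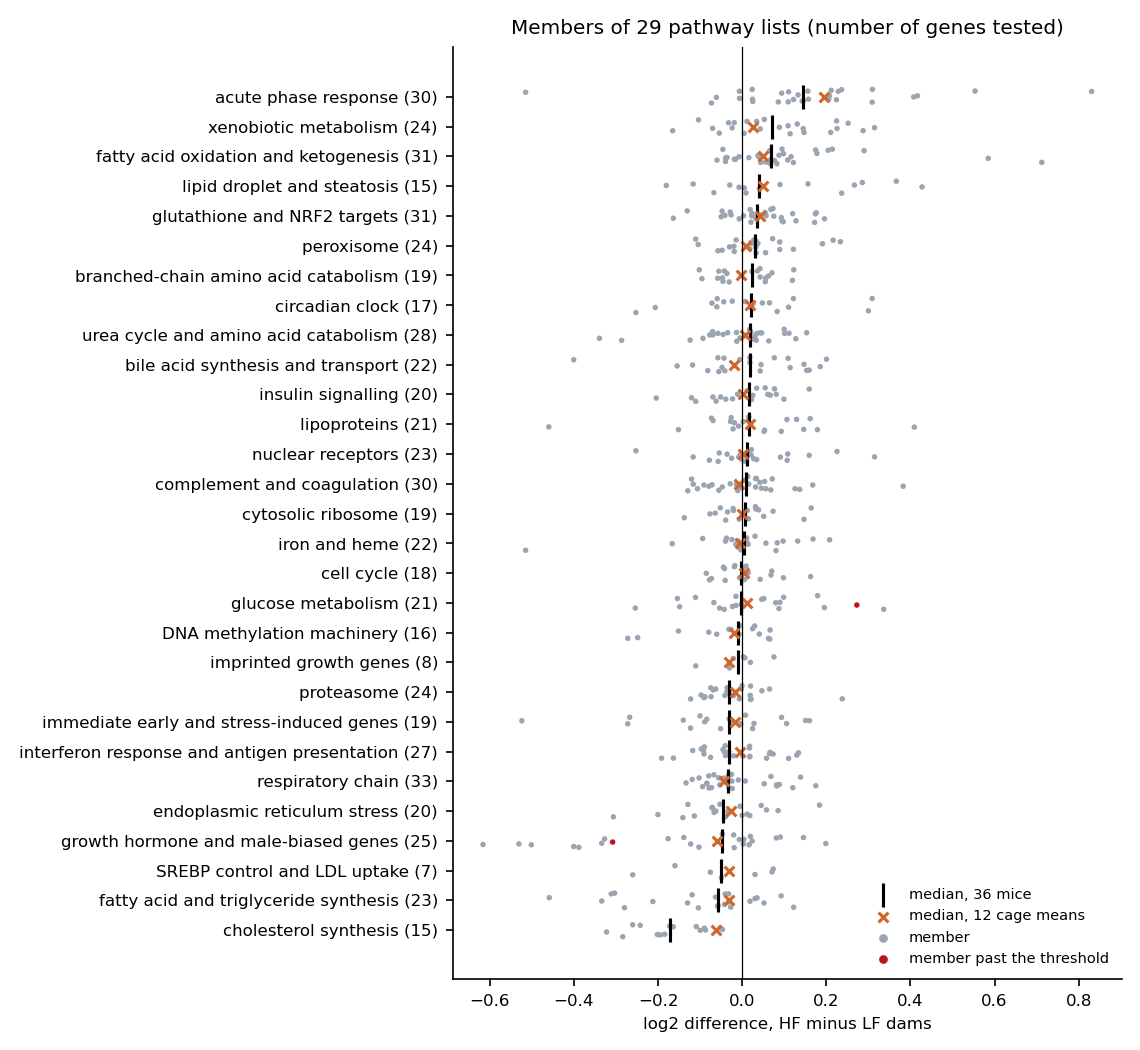
Log2 difference (HF minus LF dams, x axis) of each member (points) of 29 pathway lists, ordered by median, with the number of genes tested in brackets. Black ticks give the median in the 36 mice and orange crosses that on the 12 cage means. The acute phase list has the highest median (0.14) and the cholesterol synthesis list the lowest (-0.17), and 2 members passed the threshold (red).

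Receptors that sense drugs had differences above 0 that did not pass. Nr1i2 (PXR) had 0.23 ± 0.07 (limma adjusted p = 0.163) and Nr1i3 (CAR) had 0.31 ± 0.10 (adjusted p = 0.209), and 17 of 24 xenobiotic metabolism genes were above 0, with a median of 0.07 and of 0.03 on the cage means. Of the clock genes, Usp2, a deubiquitinase with a daily rhythm, had 0.31 ± 0.10 (adjusted p = 0.181) and Nr1d1, the clock repressor REV-ERB alpha, had -0.25 ± 0.10 (adjusted p = 0.355). Of 33 respiratory chain genes 9 were above 0, with a median of -0.03, and of 24 proteasome genes 7 were, with a median of -0.03. Uqcrh, a subunit of complex III, had -0.12 ± 0.03 (adjusted p = 0.116). The 16 genes of the DNA methylation machinery and the 8 imprinted growth genes had medians of -0.01, and Grb10, an imprinted inhibitor of insulin and growth signals, had -0.11 ± 0.04 (adjusted p = 0.316). The pathway lists not described here had medians between -0.05 and 0.04 and no member past the threshold.

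Of the 13 marker lists of cell types none had a member past the threshold. Over all genes 27 of 8538 passed, so lists this short would rarely hold one. Their lack of a member past the threshold says nothing of the cell types present. Of 10 hepatocyte markers 8 were tested, of which 1 had a difference above 0, with a median of -0.07, and their summed values were 116873 to 132903 units in mice of LF dams and 113499 to 132563 in mice of HF dams. The lists furthest from 0 were, beside the hepatocyte list, exocrine pancreas (2 genes tested, median -0.07), skeletal muscle (1 gene, 0.07) and periportal hepatocytes (8 genes, -0.05). The other 9 lists had medians between -0.03 and 0.04. Stab1, a marker of the sinusoidal endothelium, had 0.10 ± 0.05 (limma adjusted p = 0.519), and Acta2, of activated stellate cells, had -0.43 ± 0.18 (adjusted p = 0.355). Car3, which adipocytes and hepatocytes both express, had -0.56 ± 0.18 (adjusted p = 0.199).

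Of the 4 measures of the mice, none passed after adjustment on the cage means. At 3 weeks the cage means of HF dams were 11.1 g ± 1.00 (SD, n = 6 cages) and those of LF dams 9.36 g ± 0.94 (SD, n = 6 cages), a difference of 1.73 g with an exact permutation p of 0.013, or 0.052 adjusted over 4 measures. With mice in place of cages as units the difference was 1.87 g and passed (adjusted permutation p = 4e-05). The second weight, labelled as taken at weaning but of adult size, was 26.9 g in both, and its difference of -0.07 g had an exact permutation p of 0.935. Length and glucose differed by -0.76 mm and -13.6 mg/dl, with exact permutation p of 0.468 and 0.277. With the second weight as a covariate of the 36-mouse fit, 25 probes passed, 12 that rose and 13 that fell.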

How the data were processed

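Liver RNA of 36 mice was measured with 1 array each. The study describes 40 mice of this age, and the 36 liver arrays of the series were all that was available here. The deposited values are intensities per probe, linear and quantile-normalized by the authors, which run from 45.7 to 32949 around a median of 71.5. They were read with BeadStudio (version not given in the sources used here) and still hold background. All 36 columns were used, and 0 others held values per sample. Log2 of the deposited intensity was taken with no further normalization. Probes with a median intensity below the median of the whole table were dropped, which left 12289 of 25697 probes (47.8%), 11570 of them with 1 gene symbol. Genes were counted by the probe with the highest mean.

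Maternal and post-weaning diet were fitted together with limma 3.58.1 in R 4.3.3, with eBayes, a trend of the variance on expression, and cage as a random block (duplicateCorrelation, statmod 1.5.0). For cage means, each mouse was adjusted for post-weaning diet before averaging, and 6 means were compared with 6 in limma. The adjustment used a degree of freedom that the fit on means does not count, and permutations did not repeat it. The threshold was a Benjamini-Hochberg false discovery rate of 0.05 over all probes. The study's own methods compared groups in pairs. The maternal-diet fits of the mice and of the cage means were first run on simulated arrays holding known changes. The simulation gave all probes the same cage correlation, so it does not cover probes with a high one of their own. Weights, length and glucose were compared by exact permutation of cage means.

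Named genes are up to 15 rises and 15 falls of largest size past the threshold, genes past it on cage means, the member of lowest p of each list with up to 4 members past it, and 7 regulators. Aard, Pign and the genes so marked were chosen after their values were seen. The members and lists were chosen with earlier results of these data known. Alternatives covered the cage term, the model, the filter, background, normalization, variance prior, array weights, single cages and single mice. The number of arrays and cages limits the precision.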

Additional observations from a re-analysis of the deposited data

Results flagged for a closer look

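A value far from the others of its group was found in 15 of 196 groups of values tested over the 27 genes, the 3 unnamed probes and the 4 measures of the mice, or 7.65%, where chance gives about 1 in 20. Cage 14, 1 mouse of LF dams on HF, had the highest cage mean of LF dams for both large unnamed probes, 10.58 against 9.89 for the next at ILMN_1232447 and 11.17 against 10.41 at ILMN_2791272. The same mouse had the highest log2 value of its group for Slc2a1, 8.29 against 8.0. Cage 1 of HF dams had the lowest cage mean of HF dams for ILMN_2791272 (10.42 against 10.82) and Dmac1 (9.61 against 9.81) and the highest for Camk1d (6.7 against 6.56). One of its mice on LF had the highest value of its group for Dusp4 (6.37 against 6.22). For Lmo4, cage 8 had the highest cage mean of LF dams (9.88 against 9.74), and for Spata22, cage 12 had the highest of HF dams (6.61 against 6.45).

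Among single mice of LF dams on LF, the one labelled replicate 6, of cage 4, was highest for Grn (11.2 against 10.77) and lowest for Aard (6.71 against 6.92), and replicate 8, of cage 11, was highest for Fbxo31 (8.82 against 8.54). Among mice of LF dams on HF, replicate 5, of cage 9, was highest for Camk1d (7.29 against 6.8) and replicate 8, of cage 11, for Tmem185b (9.25 against 9.06). Among mice of HF dams on HF, replicate 1, of cage 10, was highest for Fbxo31 (9.43 against 8.98).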

How the results depend on the processing

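The maternal count of 33 probes in the 36 mice became 51 with no cage term, 20 under the stricter filter on dim probes and 106 with array weights, and lay between 24 and 35 under the 7 other planned settings. Without 1 cage it ran from 2 to 51 and without 1 mouse from 12 to 46. Single mice that moved it by over 1.5 times were, of LF dams, replicate 4 on HF (12), replicate 8 on HF (15) and replicate 7 on LF (19), and, of HF dams, replicate 3 on HF (20), replicates 6 and 10 on HF (21 each) and replicate 6 on LF (21). On the cage means the count of 4 became 0 by limma when the post-weaning effect was estimated within cages (900 at an unadjusted p under 0.05), and ran from 0 to 6 without 1 cage. Without both cages of 1 mouse, an alternative added after the data were seen, it was 2 (1 rose and 1 fell), against 29 in the 36 mice. The cause of these changes was not tested. The 3-week weight passed with mice as units (1.87 g, adjusted permutation p = 4e-05). The median of a list moved by more than the spread between mice in 3 of 168 comparisons. No called value changed sign, which selection in the same mice favours. No paired analysis was possible because replicate numbers follow accession order only, and no cage held mice of both maternal diets, so that nothing pairs the maternal groups. The number of cages, 6 of each diet, limits what could pass.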

Other observations

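Nrep and Ddc had cage means that did not overlap between the maternal diets but passed in neither count. Cage means of HF dams that were all lower occurred for 0.472% of all probes tested. For Ddc the highest cage mean of HF dams was 8.79 and the lowest of LF dams 8.80 on the log2 scale. Nrep, first described in regenerating neurons, had -0.55 ± 0.17 in the 36 mice (limma adjusted p = 0.163) and -0.64 ± 0.13 on the cage means (limma adjusted p = 0.199), with all cages of HF dams lower. Ddc, which makes dopamine and serotonin, had -0.31 ± 0.09 (adjusted p = 0.124) and, on the cage means, -0.31 ± 0.06 (adjusted p = 0.131). Both genes were chosen after their values were seen. Apoa4, an apolipoprotein, had 0.41 ± 0.13 (adjusted p = 0.185), with 0.70 on LF and 0.11 on HF. Cfb, complement factor B, had 0.38 ± 0.12 (adjusted p = 0.163) and 0.50 ± 0.13 (adjusted p = 0.412) on the cage means.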
